A study of Ciona robusta with 133 samples.

Results

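Celf3.a, also known as ETR-1, is 1 gene (KH.C6.128) of the 15287 gene models in a count table of single cells from embryos of the ascidian Ciona robusta. It was chosen by its identifier, as a marker of the nervous system, and its level was read in all 133 single-cell libraries, which cover 19 cell types at 5 stages. Every library had reads of the gene, so no value had to be replaced by a detection limit. Its level showed no called difference between neural-side and partner cells at 32 cells and was higher in the neural cells of both lineages at the neural plate stage. The A-line call there rested on 2 neural embryos and was lost in a fit of the compared cell types alone (edgeR adjusted p = 0.371). In between, the edgeR calls for A8.7 over A8.5 and a7.10 over a7.11 depended on whether the embryo was a block. Without the block, A8.7 was called higher than A8.5 at 112 cells (adjusted p = 0.00756, against 0.0542 with it). With the block, a7.10 was called higher than a7.11 at 64 cells (adjusted p = 0.0307, against 0.0830 without it). For a8.19 over a8.22 at 112 cells the call depended on the method (edgeR adjusted p = 0.235, DESeq2 adjusted p = 0.00761). A7.4 was not called higher than A7.3 or A7.2, with or without the block.

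CELF proteins bind RNA through RNA recognition motifs and are known in vertebrates to act in splicing, translation and turnover of messenger RNA. In ascidian embryos Celf3.a is commonly used as a pan-neural marker, because its transcripts mark the neural plate and the nervous system that forms from it. The ascidian nervous system comes from several early lineages. Neural fate in the anterior animal cells is known to be induced by fibroblast growth factor from neighbouring vegetal cells, while the anterior vegetal cells divide into neural, notochord and endoderm precursors.

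Cells were dissected by hand from embryos of 16, 32, 64 or 112 cells and from neural plates with 6 rows of cells, and no treatment or genetic change is named in the labels. Cell types carry Conklin names, with a capital A for the anterior vegetal lineage and a lower-case a for the anterior animal lineage. In the A line the neural-side cell and its partner were A6.2 and A6.1 at 32 cells, A7.4 and either A7.3 or A7.2 at 64 cells, A8.7 and A8.5 at 112 cells, and A9.13+A9.14 paired with A9.9+A9.10 at the neural plate stage. In the a line they were a6.5 and a6.6 at 32 cells, a7.10 and a7.11 at 64 cells, a8.19 and a8.22 at 112 cells, and a9.37+a9.38 paired with a9.43+a9.44 at the neural plate stage. A5.1 and a5.3 are the 16-cell mothers of the 2 lines. By textbook fate maps the A-line partners give notochord, except the endoderm precursors A6.1 and A7.2, and the a-line partners give epidermis. A6.2 is the mother of both the neural-side A7.4 and the notochord-fated A7.3, so at 32 cells the A-line neural side is not neural alone. The table does not pair identifiers with gene names, so the labelled cell types were not checked against markers. The neural plate labels name a pair of cells per group and give a column for each library, without saying which named cell a library holds.

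Total counts ranged from 1452103 to 16599891 per library (median 7546701), and the gene had 10 to 3578 counts (median 495). Cells of 1 type from 1 embryo were summed, so n counts embryos and values are CPM, the counts per 1000000 of the sample's total, given as mean ± SD. In such a sum a cell with more reads weighs more. CPM is a share of the reads of a cell, so a change in the share and a change in the other RNAs of the cell cannot be told apart. The left A6.1 cell of embryo 5 gave a library with 7137 genes that had a count, against 9667 or more in the others, and a median correlation with its group of 0.401, against 0.889 or more. It was left out of means and tests, and results that change when it is kept are given with both values. In that library the gene stood at 243 CPM (95% exact binomial interval 234 to 252).

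Celf3.a was highest in the neural cells of the neural plate, at 670 ± 228 CPM in a9.37+a9.38 (n = 3) and 504 ± 50.9 CPM in A9.13+A9.14 (n = 2). The neural-side cells of the 112-cell stage followed, with 211 ± 12.8 CPM in A8.7 (n = 5) and 143 ± 62.6 CPM in a8.19 (n = 4). Next came the 64-cell neural-side cell a7.10 at 112 ± 39.7 CPM (n = 8), the epidermis-fated a9.43+a9.44 at 107 ± 2.94 CPM (n = 3) and the notochord-fated A9.9+A9.10 at 97.5 ± 47.0 CPM (n = 3). A6.1 (78.8 ± 13.6 CPM, n = 5), A7.4 (77.3 ± 7.73 CPM, n = 4) and A6.2 (61.3 ± 11.3 CPM, n = 6) formed the middle of the order. The other 9 cell types had means between 37.0 CPM in a6.5 and 50.1 CPM in a7.11.

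Most neighbours in this order were not separated by their spread. Of the 18 pairs of neighbours, 15 differed by less than the larger of their SDs. The 3 larger gaps lay between A9.13+A9.14 and A8.7, between A8.7 and a8.19, and between A7.4 and A6.2. Only between A9.13+A9.14 and A8.7 did the embryos of neighbouring cell types not overlap, with 468 and 540 CPM in A9.13+A9.14 and 193 to 228 CPM in A8.7. Relative to the 16-cell mother of its lineage, the mean level was 14.4 times as high in a9.37+a9.38 and 11.7 times as high in A9.13+A9.14. For the neural plate partners the same ratio was 2.32 in a9.43+a9.44 and 2.26 in A9.9+A9.10. With totals scaled by TMM these ratios were 14.7, 11.6, 2.46 and 2.32, and 4 cell types changed places with a neighbour in the order.

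**Figure D1:**
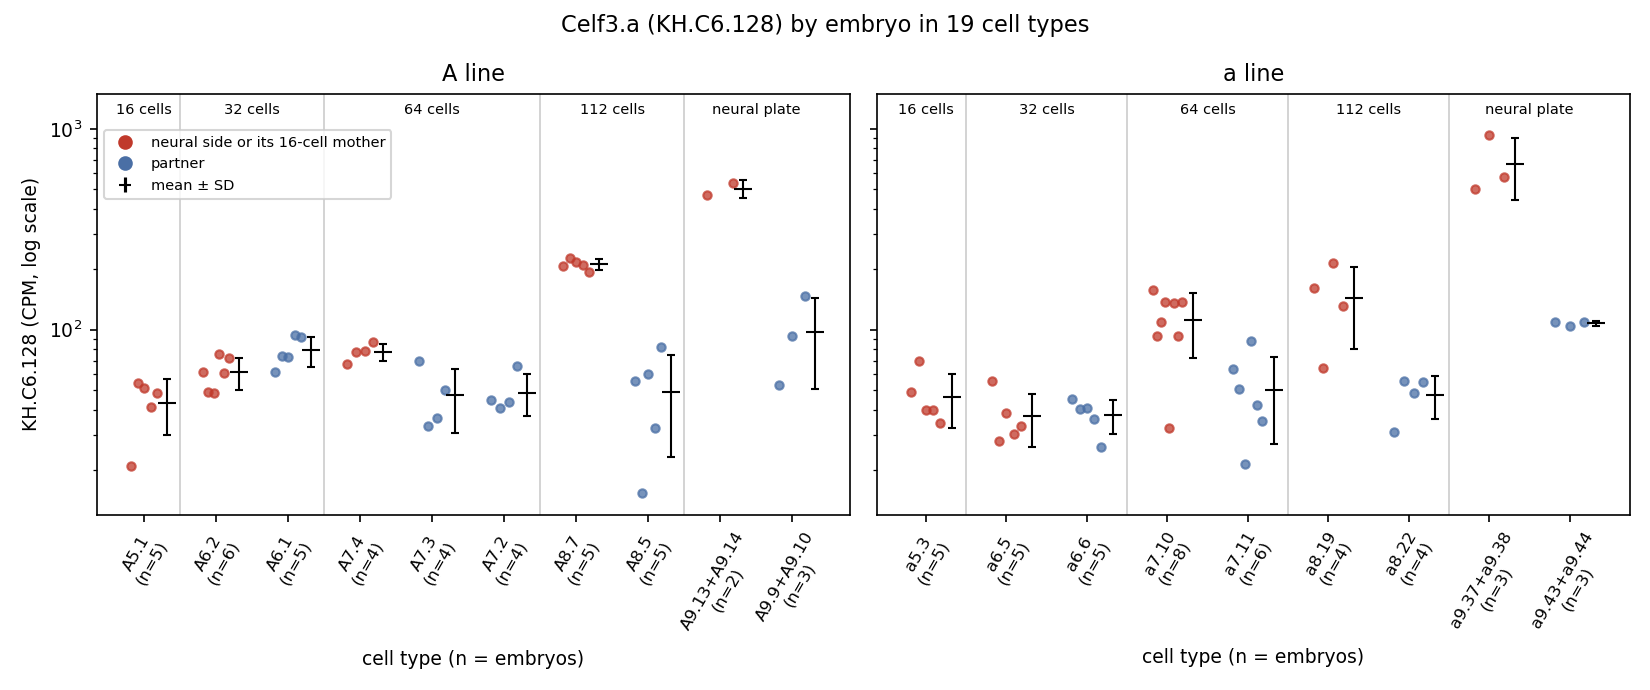
Celf3.a (KH.C6.128) in CPM on a log scale (vertical axis) for each cell type, in order of stage from left to right, for the A line (left panel) and the a line (right panel). Each point is 1 embryo, red for neural-side cells and the 16-cell mothers and blue for partners, and black bars give mean ± SD over n embryos. Red and blue points overlap at 32 cells and, for a7.10 with a7.11 and A7.4 with A7.3, at 64 cells, and the red ones lie above the blue ones of their lineage from 112 cells on, standing at 468 to 929 CPM in the neural plate.

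At the 16-cell stage no difference in Celf3.a between the lineages was detected. It stood at 21.0, 54.2, 51.3, 41.1 and 48.4 CPM in A5.1 of embryos 1, 3, 4, 5 and 6, against 48.6, 69.5, 39.6, 39.8 and 34.3 CPM in a5.3 of the same embryos. The groups overlapped, and A5.1 was the higher cell in 3 of 5 embryos. A5.1 over a5.3 gave a log2 fold change of -0.07 (95% interval -0.60 to 0.47, edgeR adjusted p = 0.942), in a comparison that called 0.151% of all genes tested (called means an adjusted p below 0.05 in edgeR's quasi-likelihood test, adjusted over all genes tested).

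At 32 cells neither neural-side cell stood above its partner. The a-line values were 55.4, 28.0, 38.3, 30.2 and 33.0 CPM in a6.5 of embryos 1 to 5, against 45.0, 40.1, 40.6, 35.9 and 25.9 CPM in a6.6, and a6.5 was higher in 2 of 5 embryos. For a6.5 over a6.6 the log2 fold change was -0.01 (95% interval -0.46 to 0.43, edgeR adjusted p = 1), and 0.00891% of genes were called. In the A line A6.2 ranged from 48.6 to 75.6 CPM with a median of 61.3 CPM over 6 embryos, against 61.4, 73.5, 73.4, 93.5 and 91.9 CPM in A6.1 of embryos 1, 2, 3, 4 and 6. In 4 of the 5 shared embryos the endoderm-fated A6.1 was the higher cell, with a median ratio of A6.2 to A6.1 of 0.786. A6.2 over A6.1 gave a log2 fold change of -0.36 (95% interval -0.79 to 0.07, edgeR adjusted p = 0.9999), and 0.00% of genes were called, with 516 genes at an unadjusted p below 0.05 and 13 called by DESeq2. With the A6.1 library of embryo 5 kept, the log2 fold change was -4.42 (adjusted p = 0.0119), and that sample's TMM factor was 0.0375, against 1.13 to 1.20 in the other samples of the fit.

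A6.2 and a6.5, the neural-side cells of the 2 lines, differed in Celf3.a at 32 cells, in a call that most fits without 1 embryo lost. From 32 cells on, the fits treated the 2 lines as separate sets of embryos. A difference between the lines there cannot be told apart from one between those sets. A6.2 stood at 61.3 ± 11.3 CPM (n = 6) and a6.5 at 37.0 ± 11.02 CPM (n = 5), a log2 fold change of 0.75 ± 0.21 SE (95% interval 0.31 to 1.18, edgeR adjusted p = 0.0261). The groups overlapped, since a6.5 of embryo 1 at 55.4 CPM lay above 2 A6.2 embryos. The comparison called 10.1% of genes, so a call there was common. It was lost in 6 of 11 fits without 1 embryo, namely A6.2 embryos 4 and 6 and a6.5 embryos 2, 3, 4 and 5, with adjusted p of 0.0529 to 0.0686. It was also lost with the A6.1 library of embryo 5 kept (adjusted p = 0.941), at a log2 fold change of 0.75 as before.

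At 64 cells a7.10 stood above a7.11 in every shared embryo, but the difference was called only with the embryo as a block and in 2 fits without 1 embryo, and by DESeq2. The level in a7.10 ranged from 32.2 to 158 CPM with a median of 123 CPM over 8 embryos, against 21.4 to 88.0 CPM with a median of 46.4 CPM in the epidermis-fated a7.11 over 6 embryos. Embryo 5 was the lowest in both cell types, with 32.2 CPM for a7.10 and 21.4 CPM for a7.11, so the groups overlapped although a7.10 was higher in 6 of 6 embryos, by 1.51 to 3.91 times. The log2 fold change was 1.14 ± 0.29 SE (95% interval 0.55 to 1.73). It did not pass the threshold without a block (edgeR adjusted p = 0.0830, unadjusted p = 0.000447) and passed with the embryo as a block (log2 fold change 1.08, adjusted p = 0.0307). It also passed without a7.10 of embryo 5 (adjusted p = 0.0112) and without a7.11 of embryo 6 (adjusted p = 0.0260). The comparison called 0.309% of genes.

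At 64 cells no difference was called in the A line. A7.4, the nerve cord precursor, stood at 67.6, 77.0, 78.0 and 86.6 CPM in embryos 2 to 5, against 69.4, 33.2, 36.1 and 49.9 CPM in its notochord-fated sister A7.3 and 44.5, 40.7, 43.6 and 65.5 CPM in the endoderm-fated A7.2. A7.4 was above A7.2 in 4 of 4 embryos and above A7.3 in 3 of 4, and its embryos overlapped with those of A7.3 but not with those of A7.2. A7.4 gave a log2 fold change of 0.73 over A7.3 (95% interval -0.03 to 1.49, edgeR adjusted p = 1) and 0.65 over A7.2 (95% interval -0.10 to 1.40, edgeR adjusted p = 1). These comparisons called 0.00859% and 0.0172% of genes.

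At 112 cells Celf3.a was higher on the neural side of the A line. The level was 207, 228, 217, 210 and 193 CPM in A8.7 of embryos 2, 3, 5, 6 and 7, against 55.5, 15.4, 60.4, 32.2 and 81.7 CPM in the notochord-fated A8.5 of the same embryos. All A8.7 embryos lay above all A8.5 embryos, and within an embryo A8.7 was 2.37 to 14.8 times as high, with the largest ratio in embryo 3. The log2 fold change was 2.12 ± 0.36 SE (95% interval 1.37 to 2.87, edgeR adjusted p = 0.00756), and 0.335% of genes were called. The call held in 10 of 10 fits without 1 embryo (adjusted p 0.00472 to 0.0260) and was lost with the embryo as a block, at a log2 fold change of 2.30 (adjusted p = 0.0542).

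At 112 cells the a-line difference was not called. a8.19 stood at 162, 64.5, 214 and 131 CPM in embryos 1 to 4, against 31.0, 55.7, 48.1 and 55.0 CPM in the epidermis-fated a8.22. All a8.19 embryos lay above all a8.22 embryos, and within an embryo a8.19 was 1.16 to 5.22 times as high, with the smallest ratio in embryo 2. The log2 fold change was 1.58 ± 0.39 SE (95% interval 0.76 to 2.40) and did not pass (edgeR adjusted p = 0.235, unadjusted p = 0.000683), with 0.150% of genes called. DESeq2 gave an adjusted p of 0.00761, and edgeR with the embryo as a block gave 0.732. With libraries in place of embryos edgeR gave 0.0159, but that fit counts cells of 1 embryo as independent samples.

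At the neural plate stage the neural cells were higher than their partners in both lineages. For the a line the level was 502, 929 and 578 CPM in a9.37+a9.38 of embryos 1, 2 and 3, against 109, 104 and 109 CPM in a9.43+a9.44. The neural cells were 4.61 to 8.93 times as high within an embryo, and the log2 fold change was 2.59 ± 0.35 SE (95% interval 1.83 to 3.36, edgeR adjusted p = 0.00465), where 0.769% of genes were called. This was the only neural-to-partner comparison whose call held in all 7 alternative analyses that alter its fit (adjusted p 2.1e-09 to 0.00549) and in 6 of 6 fits without 1 embryo (adjusted p 0.0140 to 0.0370).

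For the A line of the neural plate the level was 468 and 540 CPM in A9.13+A9.14 of embryos 1* and 2*, against 52.8, 93.2 and 147 CPM in A9.9+A9.10 of embryos 1*, 2* and 3* (the star is part of the labels' embryo names). The neural cells were 8.85 and 5.79 times as high within the 2 shared embryos, and the groups did not overlap. The log2 fold change was 2.31 ± 0.37 SE (95% interval 1.50 to 3.12, edgeR adjusted p = 0.0260), and 0.211% of genes were called. The call was lost when A9.13+A9.14 was left without its embryo 1* (adjusted p = 0.118) or 2* (adjusted p = 0.181), where the lone sample is taken to vary like the other groups, and when A9.9+A9.10 was left without its embryo 2* (adjusted p = 0.0611). It was also lost in a fit of these 2 cell types alone (adjusted p = 0.371).

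**Figure D2:**
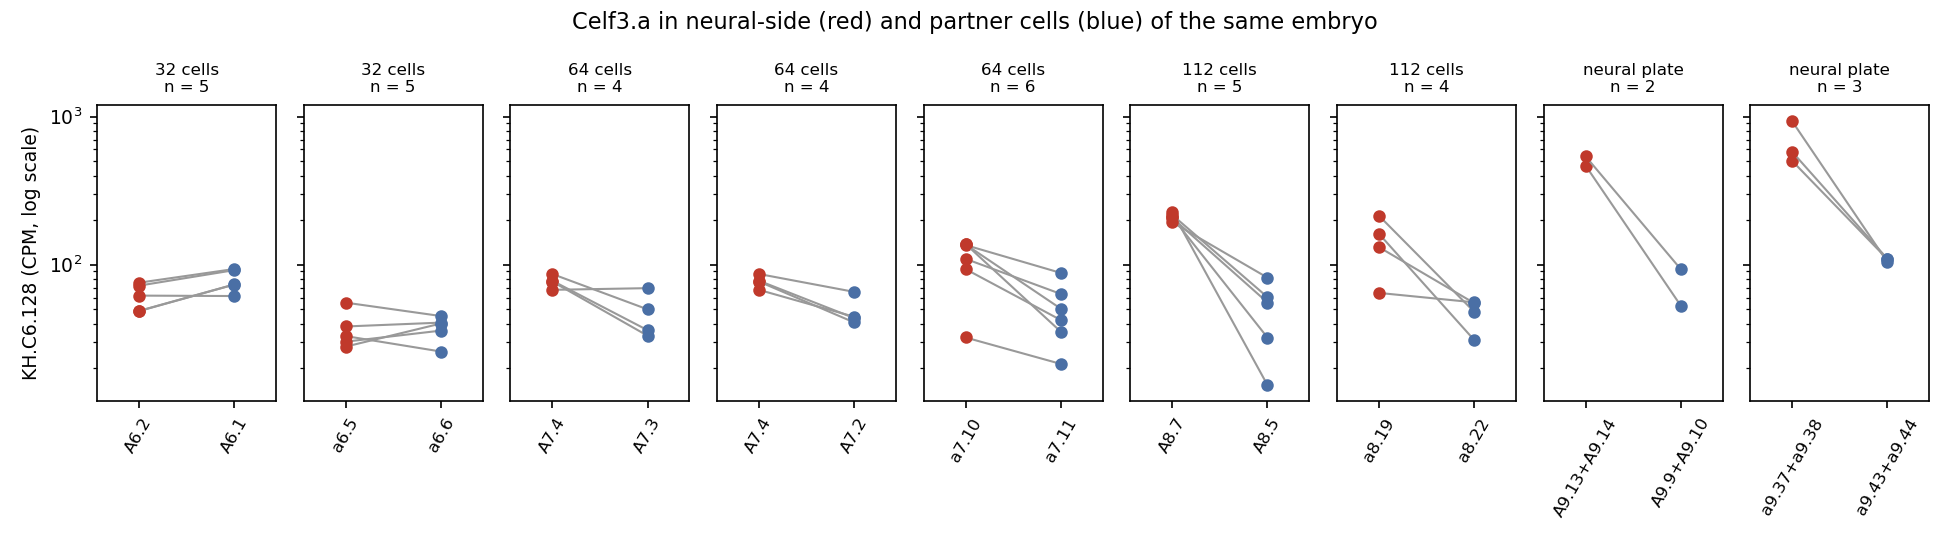
Celf3.a in CPM on a log scale (vertical axis) in neural-side cells (red, left of each panel) and partner cells (blue, right) of the same embryo, with 1 line per shared embryo and 1 panel per pair of cell types from 32 cells to the neural plate. The lines are mixed at 32 cells and fall towards the partner in every embryo from 112 cells on, with ratios of 1.16 to 14.8 at 112 cells and 4.61 to 8.93 at the neural plate stage.

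The neural sides of the 2 lineages were not told apart by Celf3.a after 32 cells. The log2 fold change of A7.4 over a7.10 was -0.49 (95% interval -1.16 to 0.17, edgeR adjusted p = 0.380), where 10.7% of genes were called. For A8.7 over a8.19 it was 0.58 (95% interval -0.18 to 1.35, edgeR adjusted p = 0.663), where 0.538% were called, and for A9.13+A9.14 over a9.37+a9.38 it was -0.43 (95% interval -1.24 to 0.39, edgeR adjusted p = 1), where 0.110% were called. The intervals allow differences of more than 2-fold, so equal levels are not shown. The sign alternated, with a7.10 the higher at 64 cells, A8.7 at 112 cells and a9.37+a9.38 at the neural plate stage.

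The excess of neural over partner cells was also compared between the lineages directly. At 64 cells the A-line partner was A7.3, and the difference with A7.2 as the partner was not tested. The A-line log2 fold change minus the a-line log2 fold change was -0.35 at 32 cells (95% interval -0.97 to 0.27), -0.41 at 64 cells (95% interval -1.36 to 0.53), 0.54 at 112 cells (95% interval -0.54 to 1.61) and -0.28 at the neural plate stage (95% interval -1.37 to 0.81). With the A6.1 library of embryo 5 kept, the value at 32 cells was -4.41 ± 1.42 SE (edgeR adjusted p = 0.115). None of the 4 differences passed without it (edgeR adjusted p = 0.989 to 1), in comparisons that called 0.0178%, 0.206%, 0.406% and 0.474% of genes. At the neural plate stage the sign of the difference turned with the embryo as a block, at 0.27 (adjusted p = 0.988).

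**Figure D3:**
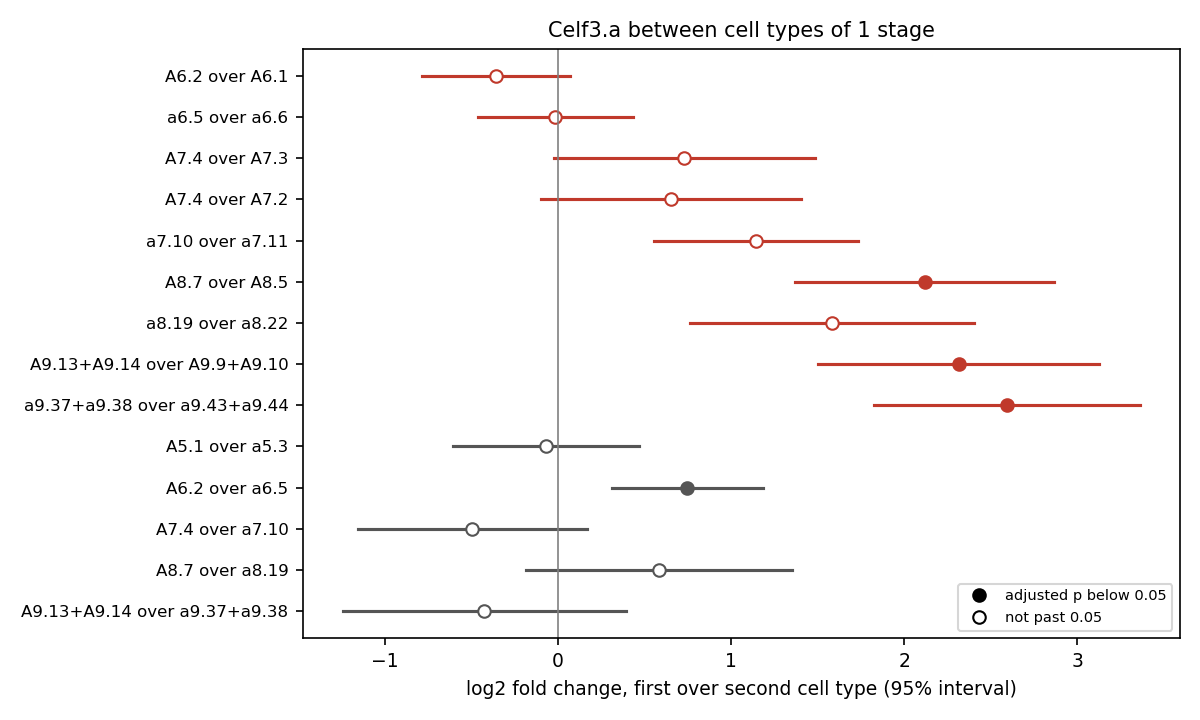
Log2 fold change of Celf3.a (horizontal axis) between cell types of 1 stage, with 95% intervals from edgeR, for neural-side over partner cells (red, from 32 cells at the top to the neural plate) and for the A line over the a line (grey, from 16 cells to the neural plate). Filled points have an adjusted p below 0.05, and the red estimates run from -0.36 at 32 cells to 2.59 at the neural plate stage.

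Each stage was also compared with the mother cell type of the stage before, in 1 fit per lineage. Along the neural side of the A line the mean was 43.2 CPM in A5.1, 61.3 CPM in A6.2, 77.3 CPM in A7.4, 211 CPM in A8.7 and 504 CPM in A9.13+A9.14. Its first called step was A8.7 over A7.4, with a log2 fold change of 1.49 ± 0.31 SE (95% interval 0.87 to 2.12, edgeR adjusted p = 0.00489), in a comparison that called 2.08% of genes. A9.13+A9.14 over A8.7 followed with 1.20 ± 0.35 SE (95% interval 0.49 to 1.92, edgeR adjusted p = 0.0438, 3.73% of genes called), a call lost in 7 of 7 fits without 1 embryo (adjusted p 0.0530 to 0.347). The earlier steps were 0.45 for A6.2 over A5.1 (95% interval -0.10 to 1.00, edgeR adjusted p = 0.349, 8.62% of genes called) and 0.33 for A7.4 over A6.2 (95% interval -0.25 to 0.90, edgeR adjusted p = 0.660, 2.04% of genes called). With the A6.1 library of embryo 5 kept in the fit, the adjusted p was 0.574 for A8.7 over A7.4 and 0.796 for A9.13+A9.14 over A8.7.

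Along the neural side of the a line the mean was 46.4 CPM in a5.3, 37.0 CPM in a6.5, 112 CPM in a7.10, 143 CPM in a8.19 and 670 CPM in a9.37+a9.38. Its first called step was a7.10 over a6.5, with a log2 fold change of 1.57 ± 0.30 SE (95% interval 0.97 to 2.17, edgeR adjusted p = 0.000220), and 14.5% of genes were called there. The step of a8.19 over a7.10 was 0.41 (95% interval -0.19 to 1.00, edgeR adjusted p = 0.350, 19.4% of genes called). The last step, a9.37+a9.38 over a8.19, was the largest of all at 2.22 ± 0.38 SE (95% interval 1.46 to 2.98, edgeR adjusted p = 3.4e-05, 18.8% of genes called). For a6.5 over a5.3 the value was -0.34 (95% interval -0.97 to 0.29, edgeR adjusted p = 0.797, 1.41% of genes called). Whether the timing of the steps differs between the lineages was not tested, because each lineage had its own fit.

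Among the partner steps, the last one of each lineage was called in edgeR. A9.9+A9.10 over A8.5 gave a log2 fold change of 1.01 ± 0.32 SE (95% interval 0.37 to 1.66, edgeR adjusted p = 0.0259) and a9.43+a9.44 over a8.22 gave 1.21 ± 0.37 SE (95% interval 0.46 to 1.97, edgeR adjusted p = 0.0166), where 15.3% and 20.6% of genes were called. The call for A9.9+A9.10 was lost without A8.5 embryo 3 (adjusted p = 0.0680), without A8.5 embryo 6 (adjusted p = 0.0667), without A9.9+A9.10 embryo 3* (adjusted p = 0.311), with limma voom (adjusted p = 0.169), in a fit of the 2 cell types alone (adjusted p = 0.296) and with the A6.1 library of embryo 5 kept (adjusted p = 0.571). The call for a9.43+a9.44 was lost without a8.22 embryo 1 (adjusted p = 0.0538).

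The earlier partner steps did not pass. For A6.1 over A5.1 the log2 fold change was 0.81 (95% interval 0.24 to 1.38, edgeR adjusted p = 0.0511, 13.0% of genes called), the one early step near the threshold, which DESeq2 (adjusted p = 0.0282) and the fit of these 2 cell types alone (adjusted p = 0.0234) placed past it. Its daughter A7.2 was lower than A6.1, with a log2 fold change of -0.67 (95% interval -1.28 to -0.06, edgeR adjusted p = 0.184, 5.27% of genes called). With the A6.1 library of embryo 5 kept these 2 values were 4.59 (adjusted p = 0.000239) and -4.48 (adjusted p = 0.00207). A7.3 over A6.2 gave -0.39 (edgeR adjusted p = 0.546, 2.07% of genes called) and A8.5 over A7.3 gave 0.10 (edgeR adjusted p = 0.918, 4.46% of genes called). In the epidermis-fated cells the values were -0.33 for a6.6 over a5.3 (edgeR adjusted p = 0.769, 2.19% of genes called), 0.42 for a7.11 over a6.6 (edgeR adjusted p = 0.433, 9.08% of genes called) and -0.03 for a8.22 over a7.11 (edgeR adjusted p = 0.976, 17.2% of genes called).

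The step of the neural side minus that of its partner was tested at the last 2 steps of each lineage, and no difference passed. In the A line it was 1.40 to 112 cells (95% interval 0.54 to 2.26, edgeR adjusted p = 0.254, unadjusted p = 0.00208, 0.0446% of genes called) and 0.19 to the neural plate (95% interval -0.80 to 1.19, edgeR adjusted p = 1, 0.00744% of genes called). The a-line value was 0.44 to 112 cells (95% interval -0.44 to 1.32, edgeR adjusted p = 0.817, 0.0713% of genes called) and 1.00 to the neural plate (95% interval -0.06 to 2.07, edgeR adjusted p = 0.557, 0.277% of genes called).

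**Figure D4:**
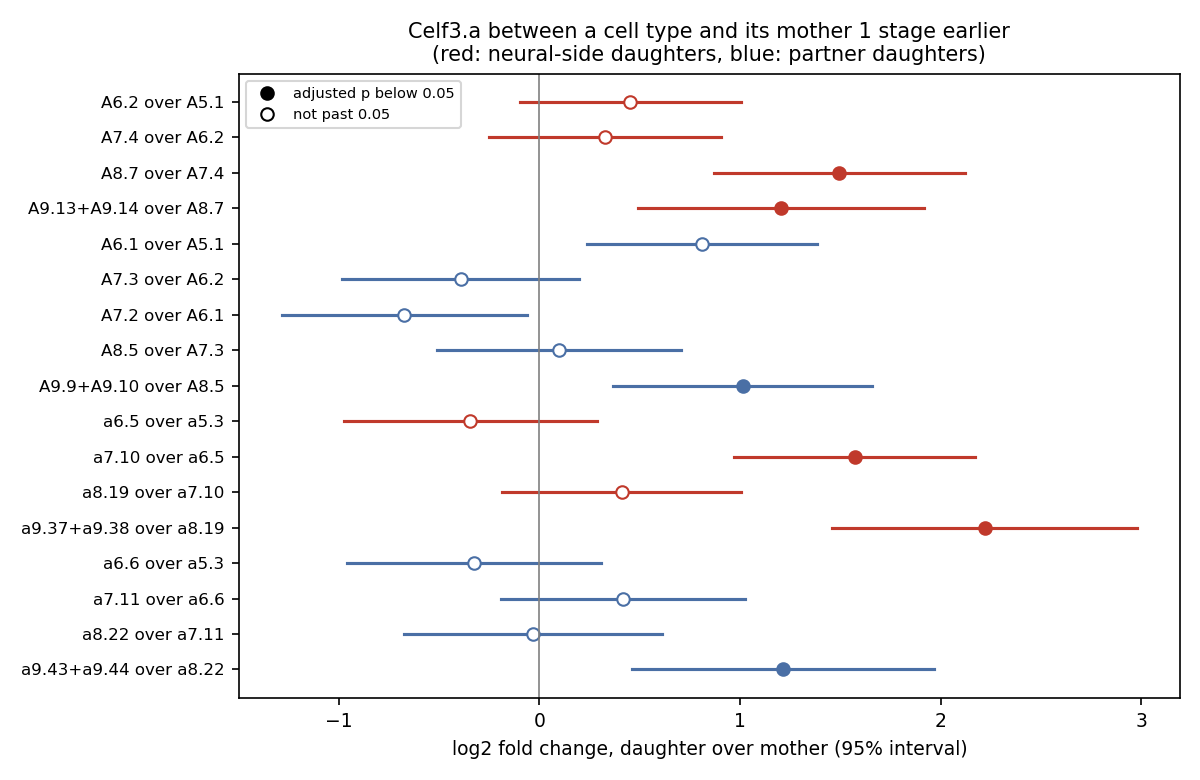
Log2 fold change of Celf3.a (horizontal axis) between each cell type and its mother cell type 1 stage earlier, with 95% intervals from edgeR, for neural-side daughters (red) and partner daughters (blue) of the A line (top) and the a line (bottom). Filled points have an adjusted p below 0.05, and the largest steps are 2.22 for a9.37+a9.38 over a8.19, 1.57 for a7.10 over a6.5 and 1.49 for A8.7 over A7.4.

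Single cells of 1 type from 1 embryo could differ widely in Celf3.a. Of the 40 embryo samples with more than 1 cell, 12 had cells more than 2-fold apart, and the median fold between the lowest and the highest cell was 1.42. The widest pair was A7.3 of embryo 3, where the left cell had 10 counts, 2.27 CPM (95% exact binomial interval 1.09 to 4.17), and the right cell 45.2 CPM (95% exact binomial interval 41.4 to 49.3). The next widest was A7.3 of embryo 5, with 16.3 and 80.5 CPM. In a8.19 of embryo 1 the left cell stood at 242 CPM and the right cell at 80.7 CPM, whereas the A8.7 cells of embryo 2 stood at 220 and 194 CPM.

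The evenness of A8.7 held across cells as well as embryos. Its 7 libraries ranged from 163 to 228 CPM, all above the 7 libraries of A8.5 at 15.4 to 83.8 CPM. The 7 a8.19 libraries ranged from 52.4 to 281 CPM and overlapped with the 7 of a8.22 at 18.8 to 71.6 CPM. Over embryos the coefficient of variation was 6.07% in A8.7, 43.7% in a8.19, 52.6% in A8.5 and 24.2% in a8.22, and these spreads were not tested against each other.

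At the neural plate stage every neural library lay above every partner library. The 6 libraries of a9.37+a9.38 ranged from 352 to 950 CPM and the 6 of A9.13+A9.14 from 361 to 574 CPM, against 76.3 to 140 CPM in a9.43+a9.44 and 45.3 to 175 CPM in A9.9+A9.10. Where both columns of 1 side were sampled in a neural group, their order was not fixed. In A9.13+A9.14 the left cells of embryo 1* stood at 546 CPM in column 2 and 361 CPM in column 1, and those of embryo 2* at 513 CPM in column 2 and 520 CPM in column 1. The right cells of embryo 2* stood at 574 CPM in column 2 and 550.2 CPM in column 1. In a9.37+a9.38 the left cells of embryo 1 stood at 627 CPM in column 2 and 672 CPM in column 1, and those of embryo 2 at 950 CPM in column 2 and 916 CPM in column 1.

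**Figure D5:**
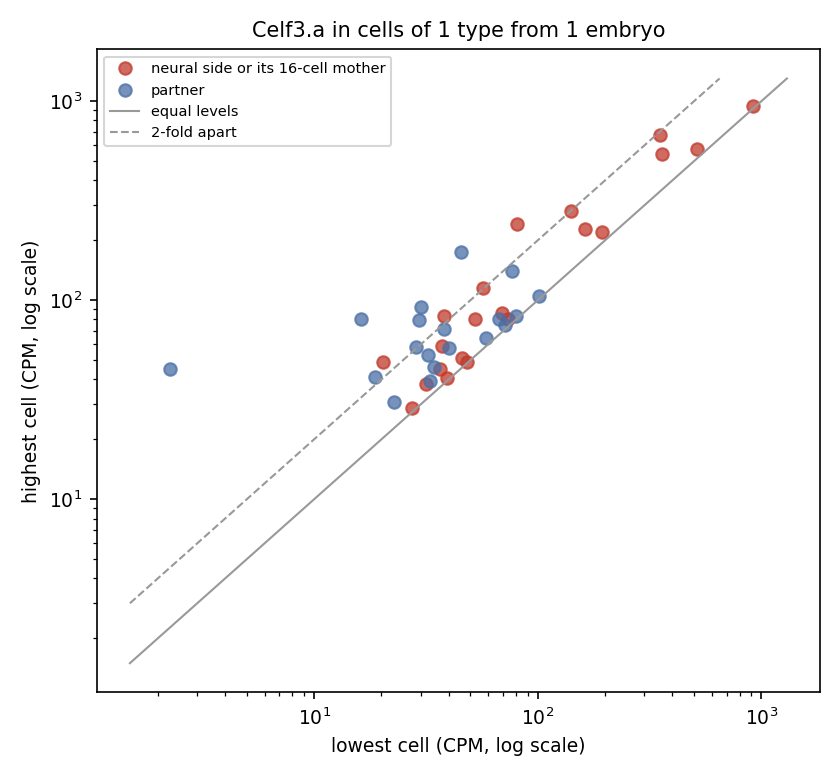
Celf3.a in the lowest (horizontal axis) and the highest cell (vertical axis) of 1 type from 1 embryo, in CPM on log scales, for the 40 embryo samples with more than 1 cell, red for neural-side cells and the 16-cell mothers and blue for partners. The solid line marks equal levels and the dashed line 2-fold, which 12 samples exceed, and A7.3 of embryo 3 lies farthest out at 2.27 and 45.2 CPM.

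Few genes followed the same pattern over the 19 cell types. Among 10808 other genes whose mean reached 5 CPM in 1 or more cell types, 21 had a Pearson correlation above 0.8 with Celf3.a over the cell type means of log2(CPM + 1), and 1 exceeded 0.9. The closest by this measure was KH.C10.113 (Pearson r = 0.91, Spearman rho = 0.86), which had 346 CPM in A9.13+A9.14 and also 314 CPM in a9.37+a9.38, against 150 CPM in A9.9+A9.10 and 159 CPM in a9.43+a9.44. KH.C4.506 came second (Pearson r = 0.89), with 544 and 582 CPM in the same neural cells against 5.78 and 2.67 CPM in their partners, but its Spearman rho was 0.56, which 702 other genes exceeded. The most negative correlations were those of KH.C14.81 (Pearson r = -0.89) and KH.C4.49 (Pearson r = -0.85), whose levels changed little. KH.C14.81 had 181 and 186 CPM in the same neural cells, 223 and 201 CPM in their partners, and 331 and 281 CPM in A5.1 and a5.3. For KH.C4.49 the values were 282 and 257 CPM, 367 and 289 CPM, and 390 and 397 CPM. These correlations describe 19 means that share libraries, stages and totals, and over the 86 embryo samples they were 0.67, 0.68, -0.57 and -0.54 in the order named. The order of genes changed there, with KH.C10.113 in place 5 and KH.C4.506 in place 3, and KH.C2.313, a gene named after its values were seen, at 0.76.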

How the data were processed

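Single cells were sequenced from template-switching cDNA. The authors deposited whole-number read counts per gene model, not normalized. The aligner was STAR 2.7.10a (per the submitters' processing notes). For the build, annotation, counter and strand setting, details were not given in the sources used here, and reads shared with near-identical genes are uncertain. Without molecular identifiers, the exact binomial intervals of single libraries cover only the counting error of reads, not of molecules. All columns matched a sample (0 unmatched).

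Counts were summed per cell type and embryo (86 samples; 2 to 8 embryos per type) and tested with edgeR 4.0.16 (R 4.3.3; TMM, filterByExpr, robust quasi-likelihood). All cell types of a stage, or of a lineage for steps between stages, shared a fit. P-values were adjusted over all genes (Benjamini-Hochberg, threshold 0.05), not over the 39 comparisons. In the main fits they rest on a spread between embryos that is shared by all cell types of the fit and moderated across genes. Without a block, the fits treat cell types of the same embryo as independent samples. SEs and 95% intervals come from the F statistic. Fold changes are TMM-scaled, CPM levels are not. The fits were also run on simulated counts, which held no embryo effect and so cannot show how the pairing of cells by embryo bears on the calls. Alternatives were RLE factors, no filter, DESeq2 1.42.0, limma 3.58.1 voom, libraries as samples, only the compared types, the embryo as a block, the A6.1 library kept, and leaving out each embryo.

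The labels state which cells share an embryo. Residual log2 CPM of such samples correlated with a mean r of 0.496 and 0.335 at 32 cells (A and a line), 0.222 and 0.0601 at 64 cells, 0.111 and 0.0506 at 112 cells, 0.0964 and 0.102 at the neural plate, and 0.264 between A5.1 and a5.3.

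The rule for named genes took KH.C6.128 in every comparison, and the 2 most positively and 2 most negatively correlated genes. The gene, the left-out library and all rules were chosen with earlier results of these data known. Sequences and chromosome position of the gene were not used here, since the reference table holds 0 identifiers of this kind.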

Additional observations from a re-analysis of the deposited data

Results flagged for a closer look

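In A7.2 at 64 cells, embryo 5 stood at 65.5 CPM, far from the other 3 embryos at 40.7 to 44.5 CPM, and its 2 cells were at 30.0 and 92.6 CPM. Of 15 cell types with enough embryos for this check, A7.2 was the one flagged, and chance flags about 1 in 20 groups.

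The A6.1 library of embryo 5, which was left out of the comparisons, had Celf3.a at 243 CPM, above every A6.1 library used (58.7 to 93.5 CPM). The part of its low number of detected genes in this value was not tested.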

How the results depend on the processing

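With the A6.1 library of embryo 5 kept, the log2 fold changes were -4.42 for A6.2 over A6.1, 4.59 for A6.1 over A5.1 and -4.48 for A7.2 over A6.1, all called, and the lineage difference at 32 cells was -4.41 (not called). In that fit 0.75 (A6.2 over a6.5), 1.49 (A8.7 over A7.4), 1.22 (A9.13+A9.14 over A8.7) and 1.03 (A9.9+A9.10 over A8.5) lost their calls, with near-unchanged size. The replicate block (embryo) ended the call of A8.7 over A8.5 (2.30), made that of a7.10 over a7.11 (1.08) and turned the lineage difference at the neural plate to 0.27. It changed no other call of this gene among the comparisons fitted with it. No paired fit could be made for steps between stages, which share no embryos. From 32 cells on, the neural-side cells of the A line over those of the a line were not fitted with the block either. The call of A6.2 over a6.5 was therefore not tested with it. DESeq2 added a7.10 over a7.11 (1.15), a8.19 over a8.22 (1.59) and A6.1 over A5.1 (0.81). Fits of the compared cell types alone added A6.1 over A5.1 (0.82) and lost A9.13+A9.14 over A9.9+A9.10 (2.32) and A9.9+A9.10 over A8.5 (1.06). Limma voom lost A9.9+A9.10 over A8.5 (0.65) and turned A5.1 over a5.3 (0.037), a6.5 over a6.6 (0.020), a8.22 over a7.11 (0.031) and the neural plate lineage difference (0.27). Libraries as samples, which counts cells of 1 embryo as independent, added a8.19 over a8.22 (1.65) and turned A5.1 over a5.3 (0.034). The cause of these changes was not tested.

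Fits without 1 embryo gave -0.16 to 0.13 for A5.1 over a5.3, -0.21 to 0.068 for a6.5 over a6.6, 0.67 to 0.96 for A6.2 over a6.5, 0.99 to 1.38 for a7.10 over a7.11, 1.996 to 2.75 for A9.13+A9.14 over A9.9+A9.10 (2.43 and 2.19 without A9.13+A9.14 embryos 1* and 2*, 2.28 without A9.9+A9.10 embryo 2*) and -0.59 to 0.18 for the neural plate lineage difference (-0.44 to 0.042 without an a-line neural embryo). For steps they gave 1.10 to 1.33 for A9.13+A9.14 over A8.7 (1.17 to 1.28 without an A8.7 embryo), -0.15 to 0.33 for A8.5 over A7.3, 0.60 to 1.35 for A9.9+A9.10 over A8.5 (0.78 to 1.26 without an A8.5 embryo), -0.19 to 0.20 for a8.22 over a7.11, 1.09 to 1.30 for a9.43+a9.44 over a8.22 and -0.11 to 0.63 for the A-line step difference to the neural plate (-0.058 to 0.42 without an A8.5 embryo).

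The count of all genes called also moved, from 23 to 192 around 38 for A8.7 over A8.5, from 3 to 155 around 25 for A9.13+A9.14 over A9.9+A9.10, from 37 to 274 around 91 for a9.37+a9.38 over a9.43+a9.44 and from 53 to 2064 around 1135 for A6.2 over a6.5. The gene had a median of 495 counts per library and as few as 10, and A9.13+A9.14 had 2 embryos.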
